A study of Mus musculus with 16 samples.

Results

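Mitochondrial biogenesis in brown fat is driven by a small set of transcription factors and coactivators, and 10 of their genes are described here across all samples of a cold exposure study. The genes were Ppargc1a, Ppargc1b and Prdm16 (coregulators), Esrra, Esrrb and Esrrg (oestrogen-related receptors), Nrf1 and Tfam (the route to the mitochondrial genome), and Pparg and Cebpb (adipogenic factors). They were taken by name and not by a rule on their values, though earlier results of these data were known when the set was chosen. Every probe that the platform annotation gives them was included, which came to 10 of 16773 named genes and 16 of 46643 probes. Of the 16 probes, 14 passed the filter on dim probes and were tested, and each of the 10 genes kept at least 1 probe. RNA from brown fat (brown adipose tissue, BAT), white fat (WAT) and the liver of female C57BL/6 mice had been hybridised to 16 Illumina MouseWG-6 arrays. RNA of different animals was not pooled, but each animal gave all of its tissues, so arrays of different labels may come from the same animal. The labels do not say which, and the tests between labels treat the arrays as independent. Mice of the cold group were kept at 22°C for 48 h and then at 8°C for 24 h, and mice of the room temperature (RT) group were kept at 22°C for the whole 72 h. All were housed singly on standard chow, and no other treatment or allele is given for either group. There were 3 arrays at each temperature for BAT, 3 for WAT and 2 for liver. The authors report that a liver sample failed, which does not by itself account for the smaller number at both temperatures.

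PGC-1α, encoded by Ppargc1a, has no DNA-binding domain of its own and is recruited to promoters by nuclear receptors and other transcription factors, and its gene is a textbook target of noradrenaline and cAMP in brown fat. Through the oestrogen-related receptors and the nuclear respiratory factors it raises transcription of respiratory chain genes in the nucleus, and through TFAM, which packages and transcribes mitochondrial DNA, that of genes in the mitochondrion. PPARγ and C/EBPβ act earlier, in making an adipocyte, and PRDM16 joins with both to direct precursor cells to the brown fate.

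Signals are given as deposited, on a linear scale with background already subtracted, so that a probe without signal lies near 0 or below. Differences are on the log2 scale after background correction and quantile normalization, and were tested by limma with all 16 arrays in 1 model; the Benjamini-Hochberg adjustment ran over 39730 probes, and an adjusted p under 0.05 was a call. A probe was taken as detected on an array at a detection score of at least 0.95, and 11915 to 17399 probes were detected per array. The brightest probe stands for its gene, and since probes differ in efficiency, the level of 1 gene is not compared with that of another. The RNA is that of whole tissue, in which fewer cells of a type and less RNA per cell cannot be told apart.

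The BAT label was borne out by its markers, and the labels of WAT and liver were not. Ucp1, the uncoupling protein that defines brown fat, had signals of 11788 to 15527 on cold BAT arrays and 11875 to 14893 on RT BAT arrays, and all of the BAT arrays also carried skeletal muscle markers, with 11 of 12 detected on each. The arrays labelled WAT had 11 or 12 of 14 hepatocyte markers detected at a summed signal of 123688 to 139796, while Adipoq, the adipocyte hormone adiponectin, lay between 12.9 and 65.7. On the arrays labelled liver, 11 of 11 adipocyte markers were detected at both temperatures, with Adipoq at 18483 and 8258 in the cold and 8151 and 10227 at RT. Hpx, a hepatocyte plasma protein, was 131 and 13.0 on the cold arrays labelled liver, against 13674 and 6795 on the RT arrays so labelled. One cold array labelled liver (replicate 2) held Ucp1 at 12928, and 1 cold array labelled WAT (replicate 3) held the pancreatic enzyme gene Cpa1 at 7150. The probe of Alb gave -8.7 to 12.5 on all 16 arrays and marks nothing here. These arrays are therefore called labelled WAT and labelled liver throughout, and their levels are those of the label and not of a tissue. The plot of marker lists by array shows these levels side by side.

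**Figure D1:**
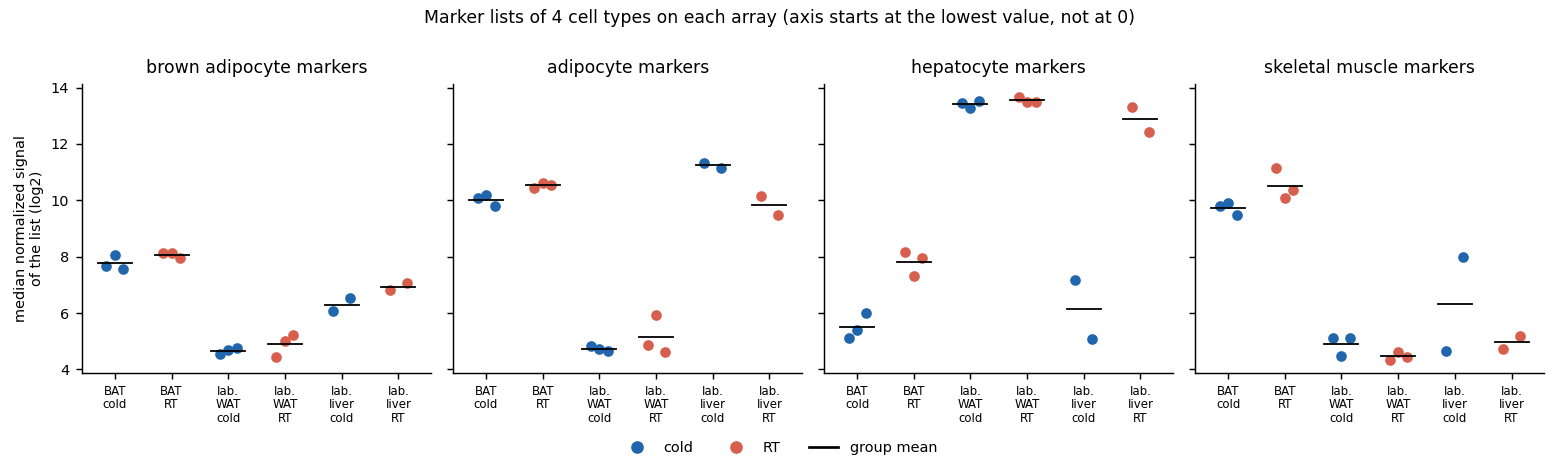
Median normalized signal (log2, vertical axis) of the markers of 4 cell types on each of the 16 arrays, by tissue label and temperature on the horizontal axis, with cold in blue, RT in red and the group mean as a line. Hepatocyte markers were high on the arrays labelled WAT (group means of 13.42 in the cold and 13.55 at RT) and on the RT arrays labelled liver (12.88), and skeletal muscle markers were high on all BAT arrays (9.71 in the cold and 10.52 at RT).

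In BAT the cold arrays lay above all RT arrays for 6 of the 10 genes (Ppargc1a, Esrra, Esrrb, Nrf1, Tfam and Cebpb) and below all of them for 1 (Prdm16), while Ppargc1b, Esrrg and Pparg overlapped. Over all probes tested, 7.79% had every cold BAT array above every RT array and 8.05% had every one below. One gene, Esrra, passed the test, and it rose 1.68-fold. Over all probes, 0.3% were called higher and 0.34% lower in cold BAT (119 and 135 probes). At an unadjusted p under 0.05, 5 of the 10 genes were higher and 1 was lower, against 4.38% and 4.3% of all probes. The median difference of the 10 genes was 0.47 on the log2 scale, beside 0.0050 over all probes. The intervals in the plot of cold differences rest on 1 spread per probe, estimated from all 6 groups and not from BAT alone. The log2 SD in BAT was 0.12 in the cold and 0.062 at RT for Nrf1, against 0.64 on cold labelled liver. For Ppargc1a it was 0.52 in cold BAT and 0.11 in RT BAT.

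**Figure D2:**
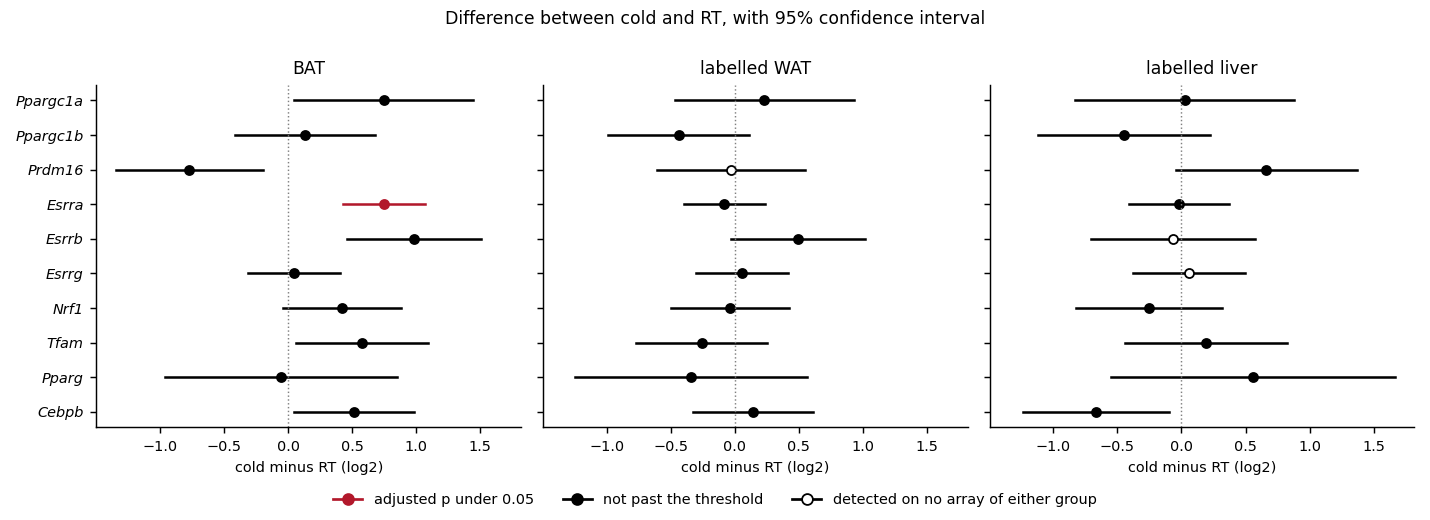
Cold minus RT difference on the log2 scale (horizontal axis) of the 10 genes, 1 row each, in BAT, labelled WAT and labelled liver, with bars for 95% confidence intervals, red for an adjusted p under 0.05 and open points for genes detected on no array of either group. In BAT 8 of the 10 differences lie above 0 and Esrra is the 1 red point (0.75), while in labelled WAT and labelled liver no gene passed the threshold.

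The sequences before the transcription starts are printed for the 5 genes that were higher in cold BAT at an unadjusted p under 0.05, because binding sites for the cAMP-responsive factor CREB, for NRF1, for GABP and for the receptors themselves are the known inputs to genes of this kind. They are RefSeq promoters in build GRCm38.p6, each the 250 bases before an annotated start (which may lie within the span of the gene), 5′ to 3′ on the gene's strand, and 9 of the 10 genes had an entry. Ppargc1a is chr5:51567726-51567975 (minus strand), Esrra chr19:6921809-6922058 (minus), Esrrb chr12:86360867-86361116 (plus, the first of its starts), Tfam chr10:71238045-71238294 (minus) and Cebpb chr2:167688665-167688914 (plus). Capitals mark exact matches on either strand to the short form of the cAMP response element (CRE) TGACG, the ERR element TNAAGGTCA, the NRF1 core GCATGCG, the GABP site CCGGAAG and the C/EBP site TTGCNNAA.
Ppargc1a: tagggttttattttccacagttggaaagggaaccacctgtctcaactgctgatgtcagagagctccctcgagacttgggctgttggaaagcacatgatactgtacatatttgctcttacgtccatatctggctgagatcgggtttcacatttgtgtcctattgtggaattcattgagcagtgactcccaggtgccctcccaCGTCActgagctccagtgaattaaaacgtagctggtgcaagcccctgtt
Esrra: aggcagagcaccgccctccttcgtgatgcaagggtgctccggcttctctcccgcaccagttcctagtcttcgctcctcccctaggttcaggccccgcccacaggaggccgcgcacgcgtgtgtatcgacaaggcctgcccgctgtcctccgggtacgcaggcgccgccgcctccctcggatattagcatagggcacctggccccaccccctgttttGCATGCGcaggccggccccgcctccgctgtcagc
Esrrb: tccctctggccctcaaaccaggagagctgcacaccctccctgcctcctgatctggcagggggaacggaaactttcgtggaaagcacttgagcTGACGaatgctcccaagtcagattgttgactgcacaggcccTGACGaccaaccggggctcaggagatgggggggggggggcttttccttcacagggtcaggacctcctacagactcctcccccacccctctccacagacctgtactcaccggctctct
Tfam: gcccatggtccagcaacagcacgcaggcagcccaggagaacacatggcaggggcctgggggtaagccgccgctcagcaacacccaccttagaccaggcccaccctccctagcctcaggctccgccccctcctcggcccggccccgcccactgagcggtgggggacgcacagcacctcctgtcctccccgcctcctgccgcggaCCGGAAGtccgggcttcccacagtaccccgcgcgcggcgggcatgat
Cebpb: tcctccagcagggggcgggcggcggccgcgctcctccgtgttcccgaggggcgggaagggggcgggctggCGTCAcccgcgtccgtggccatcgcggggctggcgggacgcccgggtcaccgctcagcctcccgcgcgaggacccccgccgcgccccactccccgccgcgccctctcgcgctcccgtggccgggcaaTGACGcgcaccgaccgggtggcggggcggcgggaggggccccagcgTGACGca
Counted back from the start, with -1 as the last base before it, the capitals are a short CRE at -49 to -45 in Ppargc1a, an NRF1 core at -34 to -28 in Esrra, short CREs at -158 to -154 and -117 to -113 in Esrrb, a GABP site at -47 to -41 in Tfam, and short CREs at -180 to -176, -53 to -49 and -7 to -3 in Cebpb. The other annotated start of Esrrb, not printed here, had none of the capitalised matches before it. None of the 5 windows held the full CRE, TGACGTCA, of which the short CRE is a part. Among 32851 RefSeq promoters of the same length the short CRE occurred in 17.8%, the NRF1 core in 3.02%, the GABP site in 6.91%, the C/EBP site in 9.56%, the full CRE in 1.55% and the ERR element in 1.14%. A match is a run of letters and does not show that a factor binds there.

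Among the coregulators, Ppargc1a had its highest level in cold BAT. Its signals there were 208.7, 231.4 and 423.3, against 143.6, 158.3 and 171.2 in RT BAT, so the groups did not overlap and 1 cold array stood well above the other two. The difference was 0.75 (SE 0.32, 1.68-fold) and did not pass the test (limma adjusted p = 0.526). Without that cold array (replicate 3) it was 0.45, still higher on every remaining cold array. Labelled WAT gave 58.4 to 67.5 in the cold and 45.6 to 61.9 at RT, and labelled liver gave 11.7 and 42.2 in the cold and 43.5 and 9.7 at RT, with overlap in both. BAT therefore lay above both other labels on every array, by 3.72-fold (labelled WAT, cold) and 7.19-fold (labelled liver, cold), with adjusted p of 0.000809 and 0.00019. The authors reported significantly higher Ppargc1a in cold BAT by quantitative PCR, and a rise on their arrays that was not significant. The gene lies at chr5:51454249-52115853.

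Ppargc1b encodes PGC-1β, the close relative of PGC-1α that also serves the oestrogen-related receptors. Its signals were 999.2, 917.3 and 965.9 in cold BAT and 796.3, 938 and 888 in RT BAT, overlapping, with a difference of 0.13 (95% interval -0.42 to 0.68, adjusted p = 0.977). The BAT arrays were high and even, at 960.8 ± 41.2 in the cold and 874.1 ± 71.9 at RT (SD, n = 3 each), while the arrays labelled WAT ran from 126.3 to 301.7 in the cold and from 215.9 to 341 at RT. Labelled liver had 86.4 and 125.8 in the cold and 178 and 123.3 at RT. In the cold BAT exceeded labelled WAT 4.62-fold (adjusted p = 2.8e-05) and labelled liver 8.11-fold (adjusted p = 2.12e-05).

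Prdm16, at chr4:154316122-154637360, had its lower signals in the cold. The signal of its brighter probe was 34.8, 54 and 63.5 in cold BAT against 130.6, 75.2 and 87.6 in RT BAT, so every cold array lay below every RT array. The difference was -0.77 (SE 0.26), 1.71-fold lower, and it failed the correction (adjusted p = 0.341). Skeletal muscle markers lay lower on the same cold BAT arrays, with 11 of 12 differences below 0, a median of -0.52 and none called, and list medians of 9.46 to 9.89 in the cold against 10.07 to 11.14 at RT. Macrophage markers (8 of 8 below 0, median -0.54) and erythroid markers (3 of 3 below 0, median -0.39) also lay lower there with none called, and their part in the difference was not tested. With the skeletal muscle list median as a covariate, added after the data had been seen, the Prdm16 difference was -0.48 (adjusted p = 0.424), and with the hepatocyte median it was -1.29 (adjusted p = 0.438). Each covariate had 1 slope for all 6 groups, so arrays of other labels also set it. Among them were the cold arrays labelled liver, with skeletal muscle medians of 4.66 and 8.00. These fits are therefore not an adjustment within BAT alone. Among the 9825 detected named genes, the 3 whose pattern over the 16 arrays was nearest to Prdm16 were Ampd1 (r = 0.98), Cmya5 (r = 0.98) and Actn3 (r = 0.97), all known as skeletal muscle genes, Actn3 being on the marker list. These correlations largely follow the differences between labels, so they do not single out the cold difference in BAT.

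Outside BAT, Prdm16 was not detected on any array labelled WAT, where signals ran from -10 to -1.9. On arrays labelled liver it was detected on both in the cold, at 8.1 and 44.3, and on neither at RT, at 5.4 and 8. The array with 44.3 is the 1 that also held Ucp1 at 12928 and skeletal muscle markers at a list median of 8.00, against 4.66 on the other cold array so labelled. BAT was at least 2.11-fold higher than labelled WAT in the cold (adjusted p = 0.00036) and at least 3.66-fold higher at RT (adjusted p = 1.74e-05). Against labelled liver it was at least 4.19-fold higher at RT (adjusted p = 0.000328), while in the cold the arrays overlapped (0.73, adjusted p = 0.138). The other probe of the gene was detected on no array.

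The oestrogen-related receptors are orphan nuclear receptors that bind PGC-1 coactivators and switch on genes of oxidative metabolism. Esrra, encoding ERRα (chr19:6910977-6922048), was the 1 gene called in the cold. Its signals were 982, 831.4 and 883.8 in cold BAT against 544.1, 564.1 and 479.3 in RT BAT, a gap with no overlap, and means of 899 ± 76.5 and 529 ± 44.3 (SD, n = 3 each). The difference was 0.75 (SE 0.15, 95% interval 0.43 to 1.06, adjusted p = 0.0431). Elsewhere the level was low and flat, at 150.7 to 194.1 in the cold and 157 to 217.9 at RT on arrays labelled WAT, and at 149.5 and 182.6 in the cold and 199 and 140.8 at RT on those labelled liver. BAT exceeded labelled WAT 4.78-fold in the cold and 2.69-fold at RT, and labelled liver 5.05-fold in the cold and 2.96-fold at RT, with the largest adjusted p of the 4 at 3.64e-05.

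The call for Esrra lay close to the threshold, although the difference stayed between 0.68 and 0.80 when any of the 16 arrays was left out. Its adjusted p then ran from 0.026 to 0.176. The call was lost without any 1 of the 6 BAT arrays. It was also lost without cold labelled WAT replicate 1 (0.0586) and without RT labelled WAT replicate 2 (0.0679). Without the 4 arrays labelled liver it was 0.0225. Hepatocyte markers were lower on the cold BAT arrays, with all 12 tested differences below 0, 5 called and a median of -2.12, at a summed signal of 1047 to 1448 against 5097 to 12405 at RT, and with the median of that list as an added covariate Esrra differed by 0.69 (adjusted p = 0.54). With the skeletal muscle median it differed by 0.80 (adjusted p = 0.053). Either covariate had 1 slope shared by all 6 groups.

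Esrrb encodes ERRβ, better known from the placenta and from embryonic stem cells, and lies at chr12:86361117-86521628. Its signal was dim. Cold BAT gave 49.9, 59.7 and 44.8, detected on all arrays, and RT BAT gave 19.5, 26.9 and 8.7, detected on 2 of 3. The difference was 0.98 (SE 0.24, 1.97-fold) and failed the correction (adjusted p = 0.117), with 1 left-out array, cold labelled WAT replicate 1, bringing it under the threshold (0.0493). With an offset of 50 in place of 16 in the background correction the difference was 0.56, below those of Esrra (0.71) and Ppargc1a (0.65). Labelled WAT gave 37.8, 17.1 and 10.3 in the cold and 3.3, 2.4 and 17.4 at RT, which overlapped (0.49, adjusted p = 0.823). No array labelled liver detected it, with signals from -2.6 to 4.3, and cold BAT was at least 2.66-fold above cold labelled liver (adjusted p = 0.0012). The call against cold labelled WAT (1.84-fold, adjusted p = 0.0214) was lost without replicates 1 or 2 of cold BAT, without replicates 2 or 3 of cold labelled WAT, without background correction and on the authors' value table.

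Esrrg, encoding ERRγ (chr1:187608510-188214885), a receptor of heart, muscle and brown fat, was detected on every BAT array and did not differ detectably with temperature there. The brightest of its 3 probes gave 36.7, 49.6 and 38.7 in cold BAT and 39.2, 34.3 and 46.4 in RT BAT, a difference of 0.04 with a 95% interval of -0.32 to 0.40. Of the 10 arrays with other labels 1 detected it, a cold array labelled WAT at 16. Cold BAT was above cold labelled WAT (adjusted p = 7.15e-05), where 1 of 3 arrays detected it, by a log2 difference of 0.66 to 4.04 over the settings run, so no fold is given. It was at least 2.27-fold above cold labelled liver (adjusted p = 0.00031), and at RT at least 1.82-fold above labelled WAT (adjusted p = 6.91e-05) and at least 2.08-fold above labelled liver (adjusted p = 0.000268). These bounds hold at the offset of 16 only. Over the settings run, the log2 difference of cold BAT from cold labelled liver was 0.70 to 4.27. The other probes of Esrrg were detected on no array. BAT arrays also carried skeletal muscle markers, with 11 of 12 detected on each, and their part in the level of Esrrg was not tested.

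Nrf1 and Tfam, which link the nuclear programme to mitochondrial DNA, were expressed at every label. Nrf1 encodes nuclear respiratory factor 1, an activator of respiratory chain and Tfam genes, and lies at chr6:30047985-30153458. Its signals were 115.1, 101.6 and 95.3 in cold BAT against 73.1, 70.4 and 78 in RT BAT, all higher, with a difference of 0.42 (SE 0.21, adjusted p = 0.656). With the hepatocyte median as a covariate, at 1 slope for all 6 groups, the difference was -0.15. That median did not overlap between cold BAT (5.12 to 6.01) and RT BAT (7.33 to 8.15), so this fit cannot separate it from temperature within BAT. Cold labelled WAT gave 86.5 to 145 and RT labelled WAT 90.4 to 128.5, while labelled liver gave 68.6 and 140.7 in the cold and 128 and 115.3 at RT. Levels of Nrf1 hardly separated the labels, and RT BAT, the lowest of the 6 groups, lay below RT labelled WAT (-0.52, adjusted p = 0.139) and RT labelled liver (-0.62, adjusted p = 0.16) on every array without passing the test. Both were called when either cold array labelled liver was left out.

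Tfam (chr10:71225468-71238328) had signals of 218.5, 182.7 and 287.8 in cold BAT against 137.3, 170.4 and 134.1 in RT BAT. All cold arrays were higher, by 0.58 (SE 0.24, 1.49-fold), and the adjusted p was 0.491. Cold labelled WAT, at 160.9, 222.7 and 102.9, overlapped with both BAT groups, and RT labelled WAT, at 207.3, 180.5 and 179.5, lay above every RT BAT array (BAT minus labelled WAT -0.33, adjusted p = 0.477). Labelled liver was the lowest, with 92.3 and 106.5 in the cold and 108.4 and 65.9 at RT. Cold BAT lay 2.11-fold above cold labelled liver (adjusted p = 0.0155), a call that was lost without background correction, without cold BAT replicate 3 or without either cold array labelled liver. The second Tfam probe was detected on no array.

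Pparg and Cebpb, the factors of adipocyte formation, were among the bright probes of the set. Pparg encodes PPARγ, the receptor of adipogenesis, and lies at chr6:115360879-115490404. It gave 2323.6, 1970.9 and 1773.5 in cold BAT and 1715.9, 2243.5 and 2454.9 in RT BAT, overlapping, with a difference of -0.06 (95% interval -0.96 to 0.85). Arrays labelled liver gave 2488.2 and 1297.6 in the cold, on either side of all BAT arrays, and 1171.2 and 1258.2 at RT, below all BAT arrays. Labelled WAT was low, at 152.6, 107.1 and 31.6 in the cold and 102, 176.4 and 72.6 at RT, and BAT stood 20.5-fold above it in the cold (adjusted p = 5.86e-06) and 16.8-fold at RT (adjusted p = 1.13e-05). Labelled WAT was also the lowest for the adipocyte markers, with list medians of 4.62 to 5.92, against 9.49 to 11.32 on the arrays labelled liver. Of its dimmer probes, 1 overlapped in BAT between cold (92.4 to 171.2) and RT (90.4 to 157.8), and the other gave 73.7, 35.5 and 114.8 in cold BAT against 31.5, 38.4 and 49.4 in RT BAT (0.62, adjusted p = 0.642), overlapping, so the probes of this gene did not give the same difference.

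Cebpb encodes C/EBPβ, a factor of early adipogenesis that cAMP induces, and lies at chr2:167688915-167690432. Its signals were 3062, 2426.1 and 2972.7 in cold BAT against 1701.9, 2240.5 and 2093.9 in RT BAT, with no overlap, and the means were 2820.3 ± 344 and 2012 ± 278 (SD, n = 3 each). The difference of 0.51 (SE 0.21, 1.43-fold) failed the correction (adjusted p = 0.505). A significant rise of Cebpb in cold BAT was reported by the authors from quantitative PCR. On arrays labelled liver the order was the reverse, at 510.5 and 676.8 in the cold against 1108.9 and 795 at RT, a difference of -0.67 (adjusted p = 0.31). Labelled WAT overlapped, at 2438.1, 1547.6 and 1456.6 in the cold and 1818.5, 1710.3 and 1282.1 at RT. BAT exceeded labelled liver 4.73-fold in the cold (adjusted p = 5.81e-05) and 2.09-fold at RT (adjusted p = 0.0118), the RT call being lost without background correction and without RT labelled liver replicate 2.

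**Figure D3:**
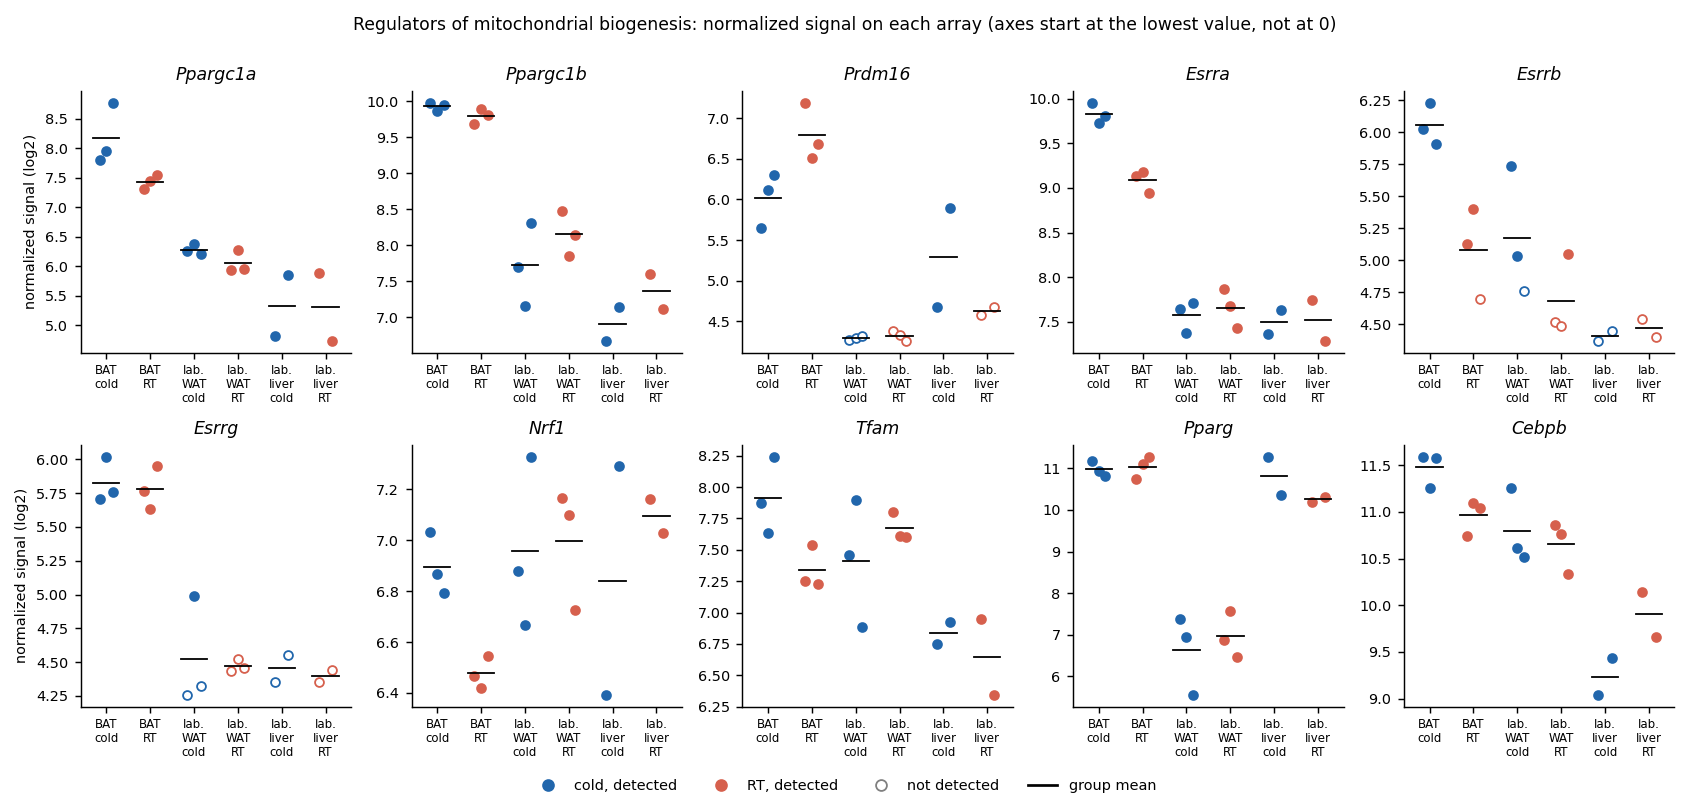
Normalized signal (log2, vertical axes) of the 10 genes on each of the 16 arrays, by tissue label and temperature on the horizontal axes, with cold in blue, RT in red, open points where the probe was not detected and a line for the group mean. Esrra shows the clearest step between cold BAT (mean 9.83) and RT BAT (9.08), Prdm16 the opposite step (6.02 and 6.79), and Pparg the split between labelled WAT and the rest.

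Ranked by mean level, cold BAT was the highest of the 6 groups for 7 genes (Ppargc1a, Ppargc1b, Esrra, Esrrb, Esrrg, Tfam and Cebpb). For Ppargc1a and Esrra the next group was RT BAT and did not overlap with cold BAT, and below RT BAT came a gap with no overlap to all other groups. For Ppargc1b and Esrrg cold and RT BAT overlapped, with the gap after them. For Esrrb cold BAT stood clear of cold labelled WAT, the next group, and for Cebpb it stood clear of RT BAT. For Tfam cold BAT, both labelled WAT groups and RT BAT each overlapped with the neighbour in the order, and for Nrf1 no neighbouring groups were apart. RT BAT was the highest group for Prdm16, apart from cold BAT, and for Pparg, where it overlapped with cold BAT and cold labelled liver.

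Set against labelled WAT, BAT was called higher for 8 of the 10 genes in the cold and for 6 at RT, and for none lower. Over all probes, 10.1% were called higher in BAT in the cold and 9.69% at RT. The 6 genes called at RT were Ppargc1a, Ppargc1b, Prdm16, Esrra, Esrrg and Pparg, and in the cold Esrrb and Cebpb (1.60-fold, adjusted p = 0.0457) were called as well. The Cebpb call in the cold was lost in 16 of 28 other settings, and that of Ppargc1a at RT without background correction and on the authors' value table. Against labelled liver, BAT was called higher for 7 genes in the cold and 6 at RT, beside 6.6% and 5.57% of all probes. Here Ppargc1a, Ppargc1b, Esrra, Esrrg and Cebpb were called at both temperatures, Esrrb and Tfam in the cold, and Prdm16 at RT. The comparisons at each temperature share no arrays with those at the other, while both labels are set against the same BAT arrays.

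**Figure D4:**
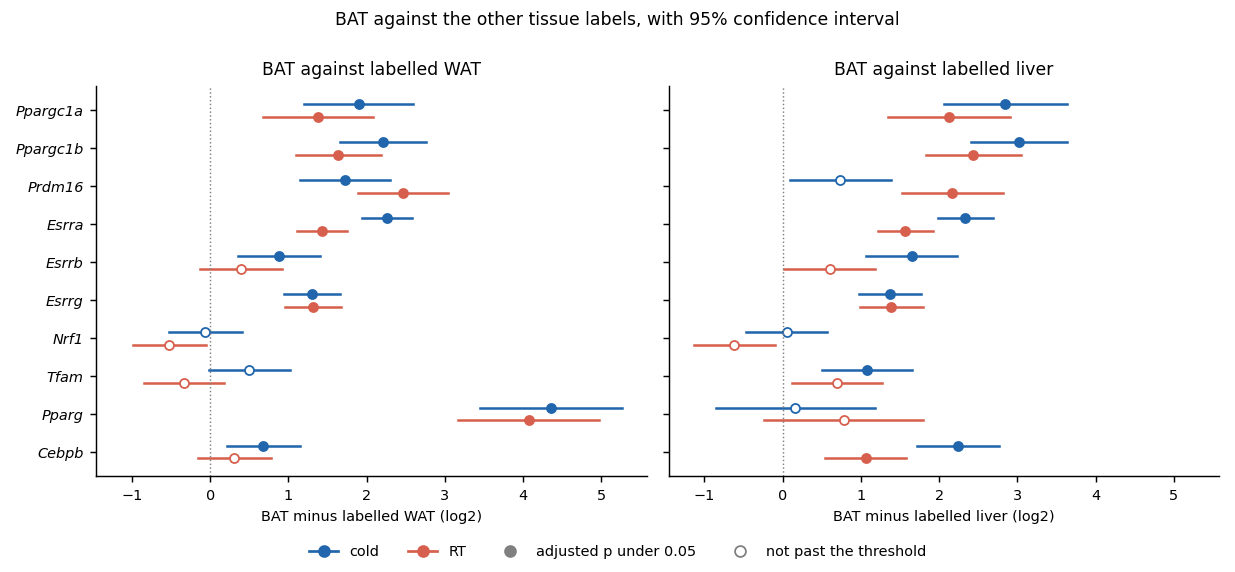
Difference between BAT and labelled WAT (left) and between BAT and labelled liver (right) on the log2 scale (horizontal axes) for the 10 genes, cold in blue above RT in red, with bars for 95% confidence intervals and filled points for an adjusted p under 0.05. Against labelled WAT the largest difference is that of Pparg (4.36 in the cold and 4.07 at RT), a gene that was not called against labelled liver (0.16 in the cold and 0.78 at RT).

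Between the arrays labelled WAT and those labelled liver, 3 genes were called in the cold, beside 19.1% of all probes in either direction, and 2 at RT, beside 9.6%. Pparg was lower on labelled WAT at both temperatures, by 18.3-fold in the cold (adjusted p = 2.89e-05) and 9.78-fold at RT (adjusted p = 0.000635). Cebpb was 2.95-fold higher on labelled WAT in the cold (adjusted p = 0.000432) and Tfam 2.03-fold higher at RT (adjusted p = 0.0279), a call lost without any 1 of the RT arrays labelled WAT and without RT labelled liver replicate 2. Prdm16 was detected only on the side of labelled liver and at least 1.27-fold lower on labelled WAT in the cold (adjusted p = 0.033), a call lost without cold labelled liver replicate 2, the array with brown fat and muscle markers, and without any 1 of the cold arrays labelled WAT. It was also lost with an offset of 50 (adjusted p = 0.108), with the replicate number as a block (adjusted p = 0.053) and with these labels fitted alone (adjusted p = 0.0555).

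Cold called none of the 10 genes on the arrays labelled WAT (28 probes, 0.0705% of all) or labelled liver (1029 probes, 2.59%) in the limma fit. At an unadjusted p under 0.05 the counts were 0 genes on labelled WAT, against 6.2% of all probes, and 1, Cebpb, on labelled liver, against 11.7%. No gene had cold and RT arrays apart on labelled WAT (9.92% of all probes), and 3 had on labelled liver (40.4%). The methods' t-test, at its own threshold of an unadjusted p and a 2-fold change, gave 0 genes on either label, both on these normalized values and on the authors' value table. The median cold difference of the 10 genes was -0.03 on labelled WAT and 0.0022 on labelled liver. On the arrays labelled liver Prdm16 differed by 0.66 (adjusted p = 0.481) and by 0.048 without cold replicate 2, the array with brown fat and muscle markers. Pparg differed by 0.56 there (adjusted p = 0.869). The largest differences on labelled WAT were those of Esrrb (0.49, adjusted p = 0.823) and Ppargc1b (-0.44, adjusted p = 0.864).

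Whether the cold response of BAT differed from that of another label was tested directly, and none of the 10 genes passed. BAT minus labelled WAT was called for 0.0201% of all probes, and BAT minus labelled liver for 1.82%. For Esrra the cold difference in BAT exceeded that on labelled WAT by 0.83 (SE 0.21, adjusted p = 0.276) and that on labelled liver by 0.77 (SE 0.23, adjusted p = 0.156). BAT minus labelled liver was 1.18 for Cebpb (SE 0.34, adjusted p = 0.137) and -1.43 for Prdm16 (SE 0.42, adjusted p = 0.143). The value for Prdm16 was -0.82 without cold labelled liver replicate 2 (adjusted p = 0.354) and -2.04 without replicate 1 (adjusted p = 0.00356). At an unadjusted p under 0.05 there were 2 genes against labelled WAT (Esrra and Tfam, both above 0), beside 7.05% of all probes, and 4 against labelled liver (Esrra, Esrrb and Cebpb above 0, Prdm16 below), beside 11.2%. Between labelled WAT and labelled liver no gene was called either, beside 1.47% of all probes, and at an unadjusted p under 0.05 there was 1, Cebpb, beside 8.96%.

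Genes that work with the 10 regulators were taken from lists written with earlier results in view, so their counts are a description. In cold BAT none of 14 tested genes of mitochondrial DNA transcription and replication was called. The largest difference among them was that of Mterf2, a mitochondrial transcription termination factor, at 0.65 (adjusted p = 0.192). None of 11 partners of NRF and ERR control was called, and Perm1, a muscle partner of PGC-1α and ERR, averaged 426 in cold BAT and 235 in RT BAT (0.81, adjusted p = 0.117). Of 17 coactivators and corepressors 1 rose, Smarcd1, a subunit of the SWI/SNF chromatin remodeller known to bind PGC-1α, at 85.4 in cold BAT and 28.2 in RT BAT (2.21-fold, adjusted p = 0.0319). None of 6 PPAR, RXR and thyroid hormone receptors passed, although Ppara, the PPAR of fatty acid oxidation, averaged 59.8 in cold BAT and 181 in RT BAT (-1.38, adjusted p = 0.0954). The authors reported a significant fall of Ppara in cold BAT.

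Of 21 C/EBP family and brown adipogenesis factors none was called in cold BAT, with Cebpa at 2884 in cold BAT and 4527 in RT BAT (-0.64, adjusted p = 0.442). Of 20 genes of the signalling upstream of the regulators 1 was called, Adcy3, an adenylyl cyclase, with mean signals of 20.9 in cold BAT and 5.63 in RT BAT (adjusted p = 0.0119), detected on 3 of the 6 arrays. None of the 19 nuclear encoded respiratory targets was called, and their median difference was 0.11, with 15 above 0. Of 11 brown adipocyte markers 2 were called and both rose, Elovl3, a fatty acid elongase, at 104 in cold BAT and 15.4 in RT BAT (3.76-fold, adjusted p = 0.00243), and Dio2, which activates thyroid hormone, at 48.8 in cold BAT and 1.3 in RT BAT (adjusted p = 0.0222), detected on 3 of the 6. Ucp1 itself was not called, and its signals overlapped, at 11788 to 15527 in cold BAT and 11875 to 14893 in RT BAT. Whether a probe this bright can still register a rise was not tested. By quantitative PCR the authors reported higher Ucp1 in cold BAT, and also higher Ppargc1a and Cebpb, which did not pass the test here.

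On the arrays labelled liver 3 of 19 respiratory targets rose in the cold, Cycs (2.45-fold, adjusted p = 0.025), which encodes cytochrome c, Atp5f1a (1.98-fold, adjusted p = 0.00593), a subunit of ATP synthase, and Idh3a (2.08-fold, adjusted p = 0.0167), an enzyme of the citric acid cycle, while 0 of the 10 regulators was called there. Of the 19 targets 18 had differences above 0, with a median of 0.57. Of all probes 0.79% were called higher on these arrays. With labelled liver fitted alone, on 2 arrays at each temperature, 0 probes were called. That fit called no hepatocyte marker either, so it cannot decide whether these calls hold. On the same arrays 10 of 12 hepatocyte markers fell, with a median difference of -5.68. Cold replicate 2 of this label held Ucp1 at 12928 and a skeletal muscle list median of 8.00, against 4.66 on cold replicate 1. The part of either in the differences of the respiratory targets was not tested. Klf4, of the adipogenesis list, also rose there (2.34-fold, adjusted p = 0.00426). On labelled WAT no gene of these lists was called.

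As a description of patterns, the 3 nearest genes to each regulator were found by Pearson correlation of normalized signals over the 16 arrays among the same 9825 genes. The arrays share labels, so these values largely follow the differences between labels. Esrra was nearest to Pop7, Slco4a1 and Letm1 (r = 0.99 each), Ppargc1a to Ptcd2, Rab5if and Cox10 (r = 0.96 each), and Ppargc1b to Fastk, Serhl and Adck1 (r = 0.97 each). Esrrg was nearest to Ahcyl1, Idh3b and Sod2 (r = 0.97 each), Pparg to Tspo, Ywhag and Tspan3 (r = 0.98 to 0.99), and Cebpb to Mtfp1, Mavs and Traf4 (r = 0.95 to 0.96). Tfam (Ackr4, Polr2k and Synj2bp, r = 0.91 each), Esrrb (Nudt19, Ahsa1 and Grpel1, r = 0.87 to 0.89) and Nrf1 (Gpsm3, Slc38a2 and Trir, r = 0.73 to 0.81) had no neighbour as close.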

How the data were processed

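The deposited intensity values are probe signals that the authors made from scanned MouseWG-6 arrays, and although the table is named as not normalized, they had background subtracted and nearly the same quartiles (-2.7, 2.7 and 18.4) on every array. The deposited detection score runs from 0 to 1 and rises with the signal. The authors' value table, on a log2 scale, equals the log2 of signals floored at 5 minus each probe's median, to within 2.54e-06, and was used as an alternative. Signals were corrected with limma 3.58.1 in R 4.3.3 (normexp, offset 16, negative controls inferred from the score) and quantile-normalized, and a probe was kept if its score reached 0.6 on 2 or more arrays. A mean per group was fitted over 16 arrays, with moderated t tests, two-sided. Where a group detected a probe on none of its arrays, the lowest value detected on each array took its place, so that the fold is a lower bound. Such a bound holds at the offset of 16 and not over the other settings. A 95% interval is a confidence interval of the difference between group means, from the moderated SE of the fit over all 6 groups. It does not describe the spread of single arrays. The text names all 10 genes, the list members that passed in the cold and a few that did not, chosen after their values were seen, and the 3 nearest patterns per gene. Members, lists and rules were chosen with earlier results of these data known. The platform annotation names 1 gene for 25349 probes, none for 21294 and several for 0. The number of arrays limits precision. The fit was first tested on simulated data. Alternatives were other corrections, normalizations and filters, other variance models, the replicate block, separate fits, the methods' t-test on the same normalized values and leaving out each array. Fits with a marker median as covariate, 1 that left out labelled liver, and that t-test run on the authors' values were added after the data had been seen. A covariate had 1 slope for all 6 groups, so arrays of every label helped to set it.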

Additional observations from a re-analysis of the deposited data

How the results depend on the processing

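In cold BAT 1 of the 10 genes was called (Esrra). The count was 0 without background correction, with no filter, on the authors' value table, with an intensity trend and robust variances, with the methods' t-test on the same normalized values at its 2-fold threshold or after Benjamini-Hochberg, and, added after the data had been seen, with that test on the authors' values after Benjamini-Hochberg and with either marker covariate, and 0 to 1 when 1 array was left out. At its 2-fold threshold on the authors' value table, also added, the methods' t-test called 1, Esrrb (1.62), with 298 probes higher and 496 lower, against 84 and 157 on the normalized values. Between labelled WAT and labelled liver the count was 1 at RT, against 2, when the labels were fitted alone and 1 to 3 when 1 array was left out. In the cold it was 6 with 75th percentile scaling, 6 with the filter at score 0.95 and 5 with an intensity trend, against 3. Leaving out 1 array gave 0 to 1 called gene for cold on labelled liver (Prdm16, without cold replicate 1) and for BAT minus labelled liver (Prdm16 without that array, Esrra without RT replicate 2). No called direction turned in the settings run. Over all probes in cold BAT, 119 were called higher and 135 lower, against 19 and 85 without background correction, 74 and 110 on the authors' value table, 65 and 109 with BAT fitted alone, 0 and 0 with the methods' t-test after Benjamini-Hochberg, 8 and 30 with the hepatocyte covariate, 149 and 219 without the arrays labelled liver, and 34 and 44 without RT BAT replicate 3. With each label fitted alone, cold called 0 probes on labelled WAT and 0 on labelled liver, against 28 and 1029. Same-numbered arrays of different labels had correlated deviations of -0.13 to 0.14 in the cold (1 of 7 pairs over 0.1) and 0.093 to 0.17 at RT (6 of 7 over 0.1). The labels tie no number to an animal, so pairing by number is not established. With the replicate block 100 probes were called higher and 127 lower in cold BAT, the count of the 10 genes was 0, and Esrra kept its difference of 0.75 with an adjusted p of 0.0562. The block also ended the calls of Cebpb, BAT against labelled WAT, and of Prdm16, labelled WAT against labelled liver, both in the cold. With temperature and number as a random block (consensus correlation 0.00102) 119 and 135 were called. The slide was not run as a block, since the sources used here give none. Low signal limits Esrrb, Esrrg and Prdm16: Esrrb differed by 1.62 in BAT without background correction and by 0.56 with an offset of 50, against 0.98.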
